A study of Mus musculus with 2 samples.

Results

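The immunoglobulin heavy chain variable (V) genes of the mouse were followed in the small intestine. They were taken as the genes whose symbol begins with Ighv and whose annotated biotype is a V gene, which gave 113 of the 43346 genes in the tables. Poly(A) RNA had been sequenced from the small intestine of 1 adult female C57BL/6J mouse aged 10 weeks, without a treatment or a genetic change in the labels. A pair of technical libraries of that tissue sample forms the only group. Technical replicate 1 is called the first library and technical replicate 2, made in 2015, the second. Paired values stand in the order first library, second library (n = 2, technical, from 1 animal), so none describes variation between mice.

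A B cell builds its heavy chain gene by joining a V, a D and a J segment, and the V segment supplies most of the variable domain that contacts antigen. Each V gene has a short leader exon, which codes for the signal peptide, and a V exon. In the gut wall, plasma cells secrete mainly IgA, whose heavy chain constant part is encoded by Igha. V genes are grouped into families by sequence, and the number after Ighv in the symbol is the family.

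The V exon ends shortly after a conserved cysteine codon, which is where the D segment is joined. To show the germline segments behind the counts below, the last 60 bases of the most used gene are given for each family whose most used gene had 20 or more counts in both libraries. They are the coding strand of the GENCODE M21 transcripts on mm10, 5′ to 3′, and capitals mark the run TANTNNTGT, which ends in the TGT of the cysteine codon.
Ighv1-53: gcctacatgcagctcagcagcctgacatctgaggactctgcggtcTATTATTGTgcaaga
Ighv3-6: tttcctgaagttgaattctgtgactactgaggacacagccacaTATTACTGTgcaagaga
Ighv5-17: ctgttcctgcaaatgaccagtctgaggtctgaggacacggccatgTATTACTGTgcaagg
Ighv10-3: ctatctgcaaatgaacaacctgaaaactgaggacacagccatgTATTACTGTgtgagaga
Ighv7-3: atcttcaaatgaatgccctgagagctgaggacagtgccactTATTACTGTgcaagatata
Ighv6-6: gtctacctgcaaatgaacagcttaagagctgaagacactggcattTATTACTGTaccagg
Ighv2-9-1: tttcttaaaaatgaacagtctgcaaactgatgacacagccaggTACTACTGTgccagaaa
Ighv4-1: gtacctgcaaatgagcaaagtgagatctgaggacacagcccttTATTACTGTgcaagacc
These windows lie on the minus strand of chromosome 12. That of Ighv1-53 spans chr12:115158403-115158462 and that of Ighv3-6 spans chr12:114288152-114288211. The run was searched on the coding strand only and was present in the last 60 bases of 107 of the 113 V genes (94.7%). A match describes these letters and no more.

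All 113 genes lie on the minus strand of chromosome 12 between positions 113578504 and 116000461, a stretch of 2421958 bases. The constant genes lie at lower coordinates, with Igha at chr12:113254830-113260236 and Ighm at chr12:113418558-113422730. The V gene nearest to them is Ighv5-2 and the one farthest away is Ighv1-85. In its longest transcript with a start codon, Ighv3-6 has a leader exon of 43 bases (chr12:114288540-114288582) and a V exon of 307 bases (chr12:114288152-114288458). Ighv1-53 has exons of 46 and 305 bases.

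The libraries held 28277875 and 24509862 expected counts, and transcripts of the mitochondrial chromosome took 31.1% and 6.19% of them. Epithelial markers fixed for this tissue were all detected, among them the villus actin-bundling gene Vil1 (7972 and 53306 counts) and the fatty acid binding protein gene Fabp2 (73231 and 77829 counts). Of the 15188 genes with 20 or more counts over both libraries, 40.2% were called higher in the second library and 27.5% higher in the first, so the libraries differed widely. A call needed a Benjamini-Hochberg adjusted p under 0.05 in a two-sided exact binomial test on counts scaled by TMM, and a difference of 2-fold or more. That test compares these libraries and covers counting error only.

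V genes were expressed in both libraries, at a higher level in the second. They summed to 2711 and 7614 expected counts, which is 0.00959% (95% Wilson interval 0.00923 to 0.00995) and 0.0311% (0.0304 to 0.0318) of all counts. Leaving out mitochondrial counts, the shares were 0.0139% and 0.0331%. Corrected for length, the V genes summed to 566 and 2201 TPM. On TMM-scaled counts their sum had a log2 ratio of second over first library of 0.86, under 2-fold. The median over all tested genes was 0.26. Under total counts these values were 1.70 and 1.10. A level in bulk RNA does not tell the number of B-lineage cells from the RNA in each, and both libraries come from the same tissue sample. Several markers of other cell types were called higher in the second library too. Of 5 macrophage markers 4 were called higher there (median log2 ratio 4.65), among them the complement gene C1qb with 2 and 1114 counts. The same call was made for 4 of 7 epithelial markers (median 1.73), among them the lectin gene Lgals4 with 832 and 49908 counts. It was also made for 3 of 6 T cell markers (median 0.98), beside 40.2% of all tested genes. Fabp2 (-0.55), Epcam (0.09) and Krt20 (0.86) were not called. With the GC trend described below removed, Epcam (-4.15) and Cdx2 (-2.32) were called higher in the first library. Lgals4 (3.44) and Fabp2 (1.11) were then called higher in the second, beside 18.6% of all in each direction. All 4 tested T cell receptor V genes were called higher in the first library (median -2.04), beside 27.5% of all. The part of these cell types in the V gene difference was not tested.

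Most of the V genes were detected. Any count was found for 76 genes in the first library and 83 in the second, with 74 detected in both and 28 in neither. The 9 genes seen in the second library alone had at most 5.28 counts there, and the 2 seen in the first alone were Ighv12-3 with 1 count and Ighv1-67 with 2. When the second library was thinned to 2711 V gene counts, 75.4 genes were expected to be detected, close to the 76 of the first. A gene at 0 counts could still hold up to 0.111% of V gene counts in the first library and 0.0394% in the second, as allowed by 3 counts. At 20 or more counts stood 26 genes in the first library and 45 in the second.

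**Figure D1:**
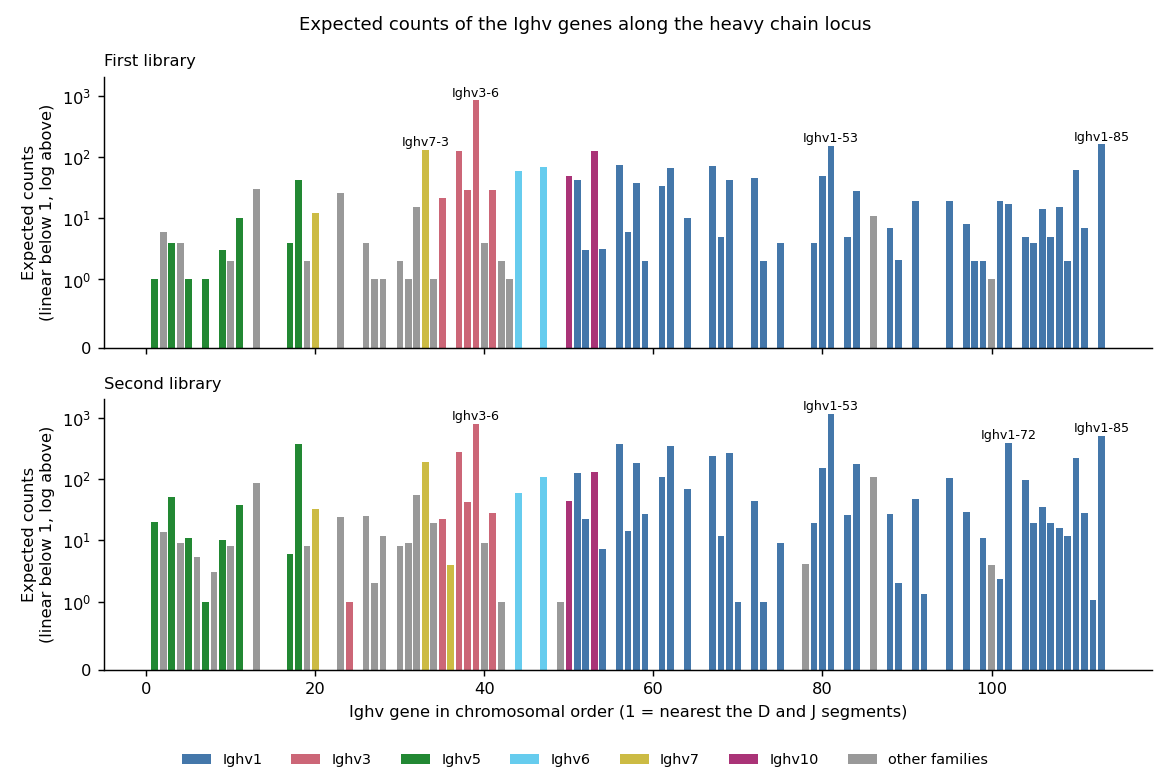
Expected counts of the 113 V genes in chromosomal order, from the gene nearest the D and J segments on the left, in the first (top) and second (bottom) library. Colours mark Ighv1, Ighv3, Ighv5, Ighv6, Ighv7 and Ighv10, and other families are grey. The vertical axis is linear below 1 count and logarithmic above. Ighv3-6 is the tallest bar in the first library with 840 counts and Ighv1-53 in the second with 1155.

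A few V genes held most of the counts. Ighv3-6 had 840 and 791 counts, 31.0% (95% Wilson interval 29.3 to 32.8) and 10.4% (9.72 to 11.1) of all V gene counts, and ranked 1 and 2. Ighv1-53 had 151 and 1155 counts, 5.57% (4.77 to 6.50) and 15.2% (14.4 to 16.0), and ranked 3 and 1. Ighv1-85, the V gene farthest from the D and J segments, had 160 and 512 counts and ranked 2 and 3. Ighv3-6 thus had a similar count in both libraries, while Ighv1-53 and Ighv1-85 had more in the second.

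The 10 most used genes held 66.6% of V gene counts in the first library and 62.0% in the second. Both lists of 10 shared 7 genes, which were Ighv1-9, Ighv1-19, Ighv1-26, Ighv1-53, Ighv1-85, Ighv3-4 and Ighv3-6. The first library's list also held Ighv10-3, Ighv6-6 and Ighv7-3, and the second's held Ighv1-34, Ighv1-72 and Ighv5-17. To reach 50% of V gene counts took 5 genes in the first library and 7 in the second, and to reach 90% took 27 and 30.

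The effective number of V genes, the exponential of the Shannon entropy of their shares, was 21.4 and 29.5. With the second library thinned to the V gene total of the first it was 29.2, so the difference in depth moved it little. Without Ighv3-6, an alternative chosen after the values were seen, the effective number was 34.6 in the first library and 30.1 in the second, and the order of the libraries turned. The inverse Simpson index, which weights the most used genes more, was 8.65 and 17.7.

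Family Ighv1, the largest with 53 genes, held 1051 and 4956 counts, which is 38.8% (95% Wilson interval 37.0 to 40.6) and 65.1% (64.0 to 66.2). Family Ighv3, with 6 genes, held 1042 and 1158 counts, 38.4% (36.6 to 40.3) and 15.2% (14.4 to 16.0). The share of Ighv1 was thus higher in the second library and that of Ighv3 higher in the first. The intervals, which cover counting error only, lay far apart. Ighv3-6 made up 80.6% and 68.3% of its family. Without Ighv3-6 the Ighv1 share was 56.2% and 72.6%.

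Smaller families also differed, in both directions. Ighv10 held 6.31% and 2.27% of V gene counts, Ighv7 5.20% and 2.99%, Ighv6 4.65% and 2.21%, and Ighv4, a family of 1 gene, 0.959% and 0.315%. These were larger in the first library. Ighv5 held 2.43% and 6.75%, Ighv8 0.443% and 1.55%, and Ighv14 0.221% and 0.735%, all larger in the second. For each of these 7 families the Wilson intervals of the libraries, which cover counting error only, did not overlap. Beside this, 40.2% and 27.5% of all tested genes were called higher in the second and in the first library. Those calls are on single genes with TMM scaling and a 2-fold limit, so they are not a like measure for family shares. Median GC content ran from 43.3% to 46.9% in Ighv10, Ighv7, Ighv6 and Ighv4, which were larger in the first library. It ran from 49.6% to 51.5% in Ighv5, Ighv8 and Ighv14, which were larger in the second. Ighv3 stood at 47.4% and Ighv1 at 50.7%. The part of GC content in these shares was not tested. Ighv2 (1.62% and 1.77%) and Ighv9 (0.812% and 1.06%) had overlapping intervals.

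Other families were nearly silent. Ighv11, represented by Ighv11-2, had 1 and 2 counts, Ighv12-3 had 1 and 0, and Ighv13-2 had 2 and 1. Ighv15-2 and Ighv16-1, the only members of their families, had 0 counts in both libraries. Family size and use did not run in parallel, since Ighv8 and Ighv2, with 9 genes each, held less than Ighv10 with 2.

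**Figure D2:**
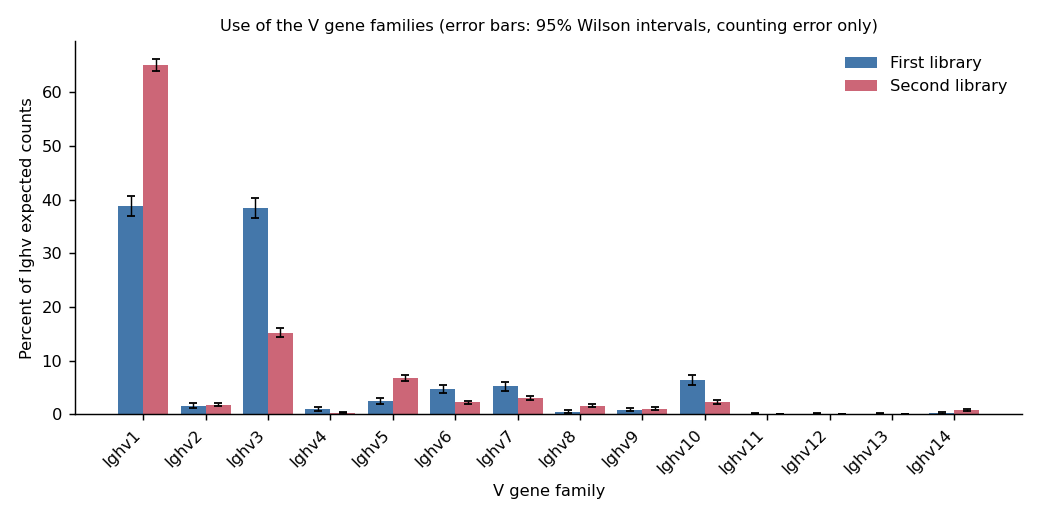
Percent of V gene expected counts in each family with any count, in the first and second library, with 95% Wilson intervals as error bars (counting error only). Ighv1 rises from 38.8% to 65.1% and Ighv3 falls from 38.4% to 15.2% between the first and the second library.

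By position, the 113 genes were divided in gene order into 38, 38 and 37 from the D and J end. The nearest group held 17.5% (95% Wilson interval 16.1 to 19.0) and 18.0% (17.1 to 18.9) of V gene counts, a share that overlapped between the libraries. The middle group held 59.7% and 39.7%, and the farthest, made of Ighv1 and Ighv8 genes only, held 22.8% and 42.3%. With Ighv3-6, the most used gene of the middle group in both libraries, left out of the group and of the total, the middle group held 41.6% and 32.7%. Its share was then still larger in the first library, by less. Median GC content was 49.6% in the nearest group, 48.9% in the middle group and 51.0% in the farthest. The part of GC content in these shares was not tested.

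Of the 113 V genes, 52 had 20 or more counts over both libraries and were tested. They held 97.9% and 97.5% of V gene counts. Of these 52, 31 were called higher in the second library, beside 40.2% of all tested genes, and 1 was called higher in the first, beside 27.5% of all. The remaining 20 were not called. The median log2 ratio of second over first library was 1.18 for the tested V genes and 0.26 for all tested genes. Of the 31, 19 had under 20 counts in the first library and 12 were among the 26 genes with 20 or more there, so the set that could be tested was itself weighted towards the second library.

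**Figure D3:**
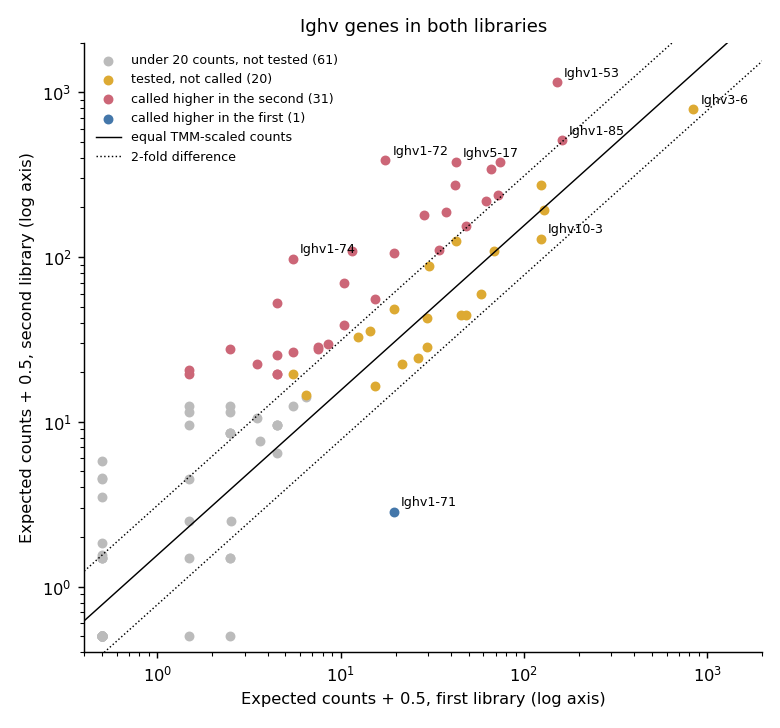
Expected counts plus 0.5 of each V gene in the first (horizontal) and second (vertical) library on log axes, with the line of equal TMM-scaled counts and dotted lines at a 2-fold difference. Of the 52 tested genes, 31 called higher in the second library lie above the upper dotted line, and Ighv1-71 lies alone below the lower one.

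The highest ratio was that of Ighv1-72, with 17 and 387 counts (log2 ratio 3.84 with a counting SE of 0.35, exact binomial adjusted p = 4.59e-61). Ighv1-74 had 5 and 97 counts (log2 ratio 3.52). Ighv5-2, the V gene nearest to the D and J segments, had 1 and 20 counts (3.14), and a ratio on 1 count is imprecise, with a counting SE of 1.22. All were low in the first library.

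Among the genes with 20 or more counts in both libraries, Ighv5-17 rose most, with 42 and 376 counts (log2 ratio 2.51, counting SE 0.23, exact binomial adjusted p = 1.79e-40). Ighv1-53 followed with a log2 ratio of 2.30 (SE 0.12). Called higher in the second library were also Ighv1-34 with 41.3 and 271 counts, Ighv1-55 with 28 and 179, Ighv1-19 with 66 and 344, Ighv1-9 with 74 and 375, and Ighv1-12 with 37 and 186. Their log2 ratios ran from 1.68 to 2.07. The Ighv1 genes Ighv1-81 (62 and 218 counts), Ighv1-26 (71.7 and 237), Ighv1-18 (34 and 110), Ighv1-85 and Ighv1-52 (48.0 and 154) passed the 2-fold limit by little, with log2 ratios from 1.04 to 1.17.

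The other 14 of those 26 genes were not called. Ighv3-6 had a log2 ratio of -0.72 (counting SE 0.07, exact binomial adjusted p = 1.92e-23), past the p threshold but under 2-fold. The same held for Ighv10-1 (48 and 44 counts, -0.76), Ighv10-3 (123 and 129, -0.56), Ighv6-3 (58 and 59, -0.61) and Ighv1-39 (45 and 44, -0.66). It also held for Ighv3-4 (123 and 274, 0.52), Ighv1-4 (41.9 and 124, 0.92) and Ighv2-9-1 (30 and 88, 0.90) in the opposite direction. Ighv7-3 (129 and 192 counts, -0.06), Ighv6-6 (68 and 109, 0.04), Ighv3-5 (29 and 42, -0.11), Ighv3-8 (29 and 28, -0.68), Ighv3-3 (21 and 22, -0.57) and Ighv4-1 (26 and 24, -0.75) did not pass the p threshold.

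The negative ratios depend on the scaling. Under total counts, which shift the median of all tested genes by 0.84, the ratio of Ighv3-6 was 0.12 and 51 of the 52 tested V genes were positive, against 40 under TMM. Shares within the V genes, given above, do not depend on it.

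By family, the calls in the second library's favour fell on 23 of 31 tested Ighv1 genes, all 4 Ighv5 genes, both Ighv14 genes and the single tested genes of Ighv8 (Ighv8-8, 11 and 109 counts) and Ighv9 (Ighv9-3, 15 and 55 counts), beside 40.2% of all tested genes. Ighv14-2 had 4 and 25 counts. Of the 8 called genes of Ighv5, Ighv8, Ighv9 and Ighv14, 7 had under 20 counts in the first library, as had 12 of the 23 in Ighv1, so they met the count minimum mainly through the second. None of the 13 tested genes of Ighv2, Ighv3, Ighv4, Ighv6, Ighv7 and Ighv10 was called in the exact binomial test, and 6 of them had an unadjusted p under 0.05, of which 4 were lower in the second library. These families were put together after their calls were seen, so the split is a description.

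GC content moved with the ratio. Over the 52 tested V genes, Pearson's r between GC content and log2 ratio was 0.67 and Spearman's rho 0.68. This is across genes of the same 2 libraries, many of them related by sequence. The 13 tested genes of the 6 families with no call had a median GC of 47.1% and the other 39 one of 50.8%. Over all tested nuclear genes a lowess trend on GC ran from -1.40 to 1.42 across the GC range of the tested V genes (43.8% to 52.6%).

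With that trend removed from the ratio and the test, 20 V genes were called higher in the second library, beside 18.6% of all 15098 genes tested so, and 1 higher in the first, beside 18.6%. The median log2 ratio was then 0.83 for the tested V genes and -0.02 for all tested genes. Of the 31 genes called before, 17 were called again, and Ighv3-4, Ighv6-6 and Ighv7-1 were added. Ighv3-6 changed sign, from -0.72 to 0.16. Ighv1-72 (2.44), Ighv1-74 (2.48) and Ighv5-17 (1.79) kept their calls, while Ighv1-85 (0.11) and Ighv1-81 (0.24) lost them. In Ighv1, 11 of 31 tested genes were called higher in the second library after removal of the trend.

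**Figure D4:**
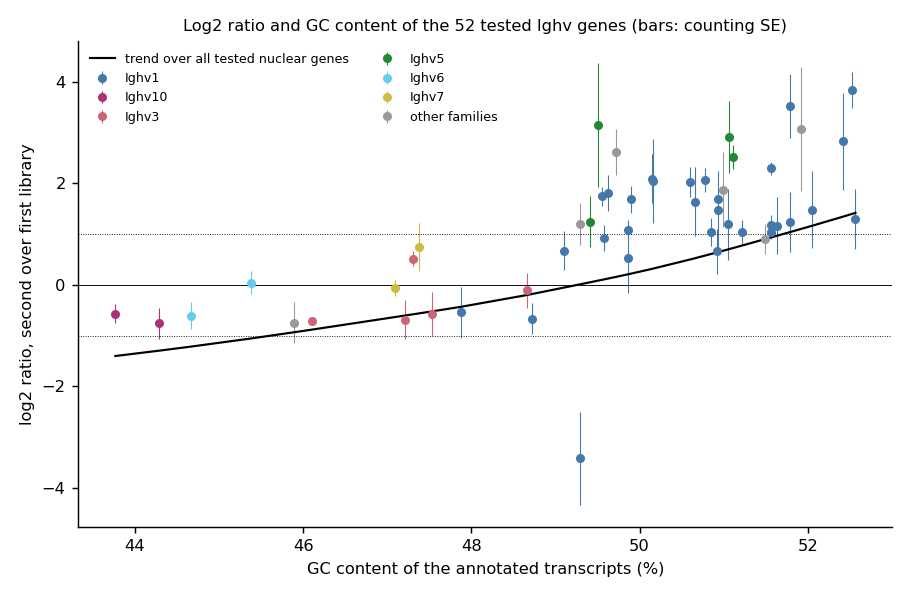
Log2 ratio of second over first library against the GC content of the annotated transcripts for the 52 tested V genes, with counting SE as bars. Colours mark Ighv1, Ighv3, Ighv5, Ighv6, Ighv7 and Ighv10, and other families are grey. The black line is the trend over all tested nuclear genes, and dotted lines mark a 2-fold difference. The Ighv10, Ighv6 and Ighv3 genes, and that of Ighv4 in grey, lie at lower GC than most Ighv1 genes.

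Many V genes are near copies of each other. When joined at an identity of at least 95% along at least 200 bases, 56 pairs joined 62 of the 113 genes, all within a family, and left 72 units, the largest of 7 genes. Counts that were not whole, by more than 0.01, were found for 6 genes in the first library (7.67% of V gene counts) and 18 in the second (38.2%). The estimated counts of such genes are uncertain between copies. A whole count can be uncertain too, so these shares do not rank the libraries by uncertainty. The posterior SD deposited with each count summed to 29.6 and 17.1 over the V genes. In the first library, Ighv1-62-2 and Ighv1-71 had 19 counts each with a posterior SD of 10.25, the highest there. With copies summed, 20 of 41 tested units were called higher in the second library, beside 40.2% of all, and none higher in the first, beside 27.5%. At an unadjusted p under 0.05, 4 of the 41 units were lower in the second library.

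The largest unit by counts in the second library joined Ighv1-53, Ighv1-55, Ighv1-62-3, Ighv1-64 and Ighv1-72, with 215 and 1828 counts, 7.93% and 24.0% of V gene counts. Within it, Ighv1-72 and Ighv1-62-3 differ at 3 of 396 aligned bases, and Ighv1-62-3 had 0 and 1.35 counts. Its 5 genes summed gave a log2 ratio of 2.45 (counting SE 0.10). A second unit joined Ighv1-18, Ighv1-19, Ighv1-22, Ighv1-26 and Ighv1-34, with 223 and 1031 counts.

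Ighv1-71, the only V gene called higher in the first library, had 19 and 2.34 counts (log2 ratio -3.41, counting SE 0.92, exact binomial adjusted p = 2.13e-06). Its closest copy Ighv1-62-2 had 19 and 47.7 counts. These genes differ at 1 of 359 aligned bases, the pair of highest identity among the V genes. That base is position 8 of the coding sequence, counted from the A of the start codon, in the leader exon. The start of both coding sequences is shown because it holds the only difference, in capitals.
Ighv1-62-2: atggaatTgtgctgggtctttct
Ighv1-71: atggaatGgtgctgggtctttct
They lie at chr12:115446828-115446850 and chr12:115742625-115742647.

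The deposited tables list 1 transcript for Ighv1-71, a V exon model of 302 bases without the leader. Ighv1-62-2 has a V exon model of the same length and, in M21, the same sequence, and a second transcript with the leader. This was the only pair of identical sequences among the 154 transcripts of the V genes. Each of the 302-base models received 19 counts in the first library and 2.34 in the second, so the split between them was even, and the transcript of Ighv1-62-2 with the leader received 0 and 45.3. Summed over both genes, 38 and 50 counts gave a log2 ratio of -0.24 (counting SE 0.31, exact binomial adjusted p = 0.468). The call on Ighv1-71 therefore rests on how counts were divided among these models.

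Transcript models with and without a start codon took different shares in the libraries, a comparison made after the values were seen. Of the 113 V genes, 82 had only transcripts with a start codon, 21 had both kinds and 10 had only transcripts without one. Over the 5 tested genes with both kinds, which held 109 and 320 counts, 13.9% and 99.3% of counts fell on transcripts with a start codon. For Ighv1-12 the share was 13.1% and 100% (37 and 186 counts), for Ighv3-5 13.0% and 100%, for Ighv3-3 16.8% and 100%, and for Ighv1-62-2 0% and 95.1%. Ighv1-5, with 3 and 22 counts, stood at 100% in both. Over all V genes, where most have no model without a start codon, 93.5% and 98.5% of counts lay on transcripts with one.

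The kappa V genes (97 Igkv) summed to 4558 and 8486 counts, and 16 of 43 tested were called higher in the second library, beside 40.2% of all tested genes, and 5 higher in the first, beside 27.5%. Their median log2 ratio was 0.36, near the 0.26 of all tested genes. The lambda V genes (3 Iglv) summed to 789 and 2703 counts. All 3 were called higher in the second library, beside the same 40.2%, with a median log2 ratio of 1.33. The ratio of heavy to light chain V gene counts was 0.507 and 0.680. The 60 Ighv pseudogenes had 3 and 1 counts in all, so counts on V sequences lay almost wholly on genes not annotated as pseudogenes. The 4 Ighj and 19 D segments had 0 counts with an effective length of 0, which leaves them without a measurement.

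Summed constant genes differed between the libraries far more than summed V genes. Igha, the IgA heavy chain constant gene, had 168 and 51352 counts, and the 8 heavy chain constant genes together had 599 and 53050. V genes therefore held 4.53 counts for each heavy chain constant count in the first library and 0.144 in the second. Counts are not corrected for length, and V genes are shorter than constant genes. In TPM, which is corrected, the ratio was 37.2 and 0.729. Igha made up 28.0% of heavy chain constant counts in the first library and 96.8% in the second, Ighd (259 and 212 counts), which encodes IgD, 43.2% and 0.400%, and Ighm (143 and 1156 counts), which encodes IgM, 23.9% and 2.18%. The order of the isotypes thus differed between libraries of the same tissue. Igkc, the kappa constant gene, had 475 and 13205 counts, and kappa V genes held 9.60 and 0.643 counts for each of its counts.

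**Figure D5:**
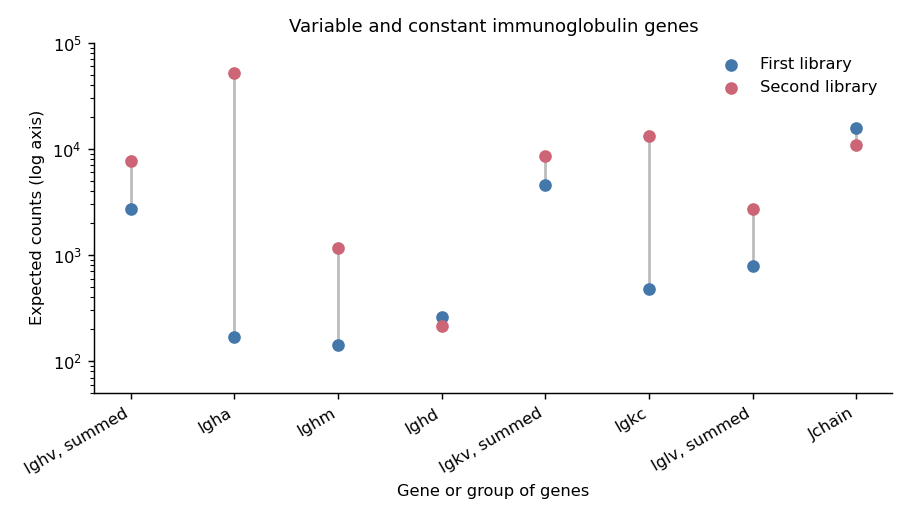
Expected counts (log axis) of summed heavy and light chain V genes, of constant genes and of Jchain in the first and second library, joined by a line. Ighv lies between 2711 and 7614, while Igha goes from 168 to 51352 and Jchain is higher in the first library (15758 against 10899).

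Of the 7 tested heavy chain constant genes, 6 were called higher in the second library and none higher in the first, where Ighd, at a log2 ratio of -0.92, was past the p threshold but under 2-fold. GC content of Igha was 53.9% and that of Ighd 47.4%. With the GC trend removed, the log2 ratio of Igha went from 7.62 to 5.54 and that of Ighd from -0.92 to -0.37.

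Among 10 genes of plasma cells and antibody secretion, 5 were called higher in the second library and 1 higher in the first, beside 40.2% and 27.5% of all tested genes. Jchain, which links IgA into dimers, had 15758 and 10899 counts and was the gene called higher in the first (log2 ratio -1.16), but 1.05 with the GC trend removed, called higher in the second. Removal of the trend also turned Sdc1, which encodes the cell surface protein syndecan-1 (169 and 1393 counts). Sdc1 went from a log2 ratio of 2.41 and a call in the second library to -2.10 and a call in the first. Irf4, a transcription factor of plasma cells, went from -0.55, under 2-fold, to -1.74 and a call in the first. V genes held 0.172 and 0.699 counts for each Jchain count. Pigr, the epithelial receptor that carries IgA into the lumen, had 105419 and 136877 counts and a log2 ratio of -0.26. Tnfrsf17, a survival receptor of plasma cells, had 1 and 23 counts. It kept its call in the second library with the trend removed (log2 ratio 3.34 before and 2.59 after). Among the genes of this list not named here, calls in the second library were both kept and lost. With the trend removed, 18.6% of all tested genes were called in each direction.

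Among 9 B cell and B cell receptor genes, 5 were called higher in the second library, including Cd79a (3 and 272 counts). The other 4, Ms4a1 (434 and 134 counts), Cr2 (249 and 76), Ebf1 (148 and 75) and Bank1 (243 and 113), were called higher in the first, beside 40.2% and 27.5% of all tested genes. B cell markers thus moved in both directions between the libraries, and their part in the V gene differences was not tested. Genes of V segment joining were at or near 0, with 0 counts of Rag1 and Dntt in both libraries and 1 and 0 counts of Rag2.

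Across all 113 V genes, Pearson's r between the libraries was 0.91 on log2 counts plus 0.5 and Spearman's rho 0.92 on counts, and the rho over the 52 tested genes was 0.77. These describe 2 libraries of the same tissue sample, across genes that are not independent replicates.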

How the data were processed

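Poly(A) RNA of 1 mouse small intestine was read in 2 technical libraries. Per the file headers, gene and transcript tables follow the RSEM format. Assembly mm10 and annotation M4 are named in the deposited notes. The aligner and the version of the quantifier were not given in the sources used here. The labels give a size range of 350 to 450, with no unit. Expected counts were deposited as estimates that need not be whole, since a read that fits several genes is divided between these. TPM was computed by the authors and is corrected for effective length. FPKM values were deposited likewise and served 1 alternative. The deposited transcript tables also give isoform percent values, which served no result. Reads were assigned to germline models, so how many reads of joined or mutated V sequence were missed was not tested.

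Symbols, biotypes, positions and GC content came from GENCODE M21 on the same assembly, matched by identifier without version, for 42462 of 43346 genes. With 1 library on each side there are 0 residual degrees of freedom, which leaves the quasi-likelihood test of edgeR without an error estimate. In its place, an exact binomial test (two-sided) was run on expected counts rounded to whole numbers, for genes with 20 or more counts over both libraries, with TMM-scaled sizes (edgeR 4.0.16) and Benjamini-Hochberg adjustment over all tested genes. Calls needed an adjusted p under 0.05 and 2-fold. The test was also run on simulated data, whose outcome is not given here and lends no support to the calls. Log2 ratios use 0.5 prior counts. The depths of 28277875 and 24509862 counts set the precision, and intervals (95% Wilson) and floors (3 counts) cover counting error only, since PCR copies of a molecule could not be told apart. Nothing states that the libraries came from separate extractions, so p-values do not measure biological spread. GC trends used lowess (span 0.3, statsmodels 0.14.6) over tested genes outside the mitochondrial chromosome. Near-identical copies were found with BLAST 2.17.0.

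Members and gene lists were chosen with earlier results of these data known. Named genes were the 12 of highest mean share, the most used of each family, the 3 highest and 3 lowest ratios, those with 20 or more counts in the first library, and listed context genes. Alternatives were size factors by median of ratios (DESeq2 1.42.0), total counts, no count minimum, GC trend removal, transcript table sums, summed copies, TPM, FPKM, added pseudogenes and each library alone. Some context genes are withheld for evaluation and not reported here.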

Additional observations from a re-analysis of the deposited data

How the results depend on the processing

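Leaving a library out of a mean of both always stays within the SD between them, so those 8 alternatives say nothing on stability. Of the other 45, 36 stayed within that SD or within 1.5 times a count. Several of these could hardly move. Transcript table sums restate the gene counts, and copies summed within a family leave the V gene share and the Ighv1 share unchanged. Added pseudogenes held 3 and 1 counts. The SD is also wide, at 18.6 points for the Ighv1 share, since it is taken between these unlike libraries. The 36 are therefore no measure of stability. The 31 V genes called higher in the second library became 20 with the GC trend removed and 20 units with near-identical copies summed, where fewer units were tested (41 against 52), and ran from 26 under median of ratios (39.7% of all tested genes) to 39 under total counts (51.4% of all) over the other scalings and filters. The 1 called higher in the first library, Ighv1-71, became 0 with copies summed and stayed 1 otherwise. The V gene share of all counts, 0.0203% as a mean of both libraries (0.00959% to 0.0311% with a library left out), was 0.138% in TPM and 0.138% in FPKM, whose scale divides by the short lengths of V genes. The Ighv1 share, 51.9% as a mean, ran from 38.8% to 65.1% with a library left out. The effective number of V genes, 25.5 as a mean and 21.4 to 29.5 with a library left out, was 16.9 with copies summed and 32.3 without Ighv3-6, an alternative chosen after seeing the data. The share of the 10 most used genes, 64.3% as a mean and 62.0% to 66.6% with a library left out, was 76.1% with copies summed. The 52 genes with 20 or more counts over both libraries became 26 with the first library alone and 45 with the second alone. No paired analysis was possible because the libraries form 1 group. Depth limits the 33 genes with counts that stayed under the minimum, which were not tested.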
